A study of Drosophila melanogaster with 6 samples.

Results

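Regulators of photoreceptor subtype and rhodopsin choice were examined in heads of miR-210 mutant and w1118 control flies. They were taken by gene symbol from the authors' deposited table, where all 10 of 10 were found among 13541 genes. The symbols are oc (orthodenticle), Pph13, dve (defective proventriculus), ss (spineless), melt (melted), wts (warts), kibra, sav (salvador), hpo (hippo) and yki (yorkie). All 10 were tested by the authors.

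RNA sequencing was done on adult heads of Drosophila melanogaster, 3 samples a group. The miR-210 mutant carries a mutation of a microRNA gene and is described in the labels as M22-3, and w1118 is the laboratory strain whose white eyes come from a mutation of the gene w. The sources used here give no age, sex or rearing, and do not say whether the mutant line was made in the w1118 background. Transcripts of w were near 0 in both groups, at 2.46 in mutant heads and 2.01 in control heads as means in the authors' deposited table. The mutated microRNA gene itself was not counted. Its nearest counted neighbour to the left, the noncoding RNA CR32553, was almost absent from mutant libraries (2.06 to 10.9 normalized counts, against 324 to 563 in control libraries).

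In the fly eye each photoreceptor normally makes a single kind of rhodopsin, the light-sensing protein, and the kind sets the colour to which the cell responds. The inner photoreceptors R7 and R8 come in pale and yellow subtypes. Stochastic expression of ss in R7 sets the yellow subtype, and a signal from pale R7 instructs the R8 below it. In R8 a bistable loop holds the choice: melt and wts repress each other's transcription, melt winning in pale R8 cells, which make Rh5, and wts in yellow R8 cells, which make Rh6. The Hippo pathway, better known for limiting organ growth, is reused here in cells that no longer divide, and homeodomain proteins such as Oc, Dve and Pph13 act on rhodopsin promoters directly.

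The group means allowed single libraries to be recovered, because a mean adds up whole reads of 3 libraries, each weighted by its own size factor. The libraries carry no replicate number and are called deepest, middle and shallowest within their group. Reads in recovered genes ranged from 6257409 to 9194231 in mutant libraries and from 8915003 to 16462836 in control libraries. Whether different flies went into each sample is not said, so p-values reflect only the spread among these samples, which may be technical. Normalized counts below are reads divided by the library's size factor. Calls are the authors', at an adjusted p under 0.05 over 11155 tested genes.

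Of the 10 regulators, 1 fell in the mutant, the homeobox gene Pph13, and 0 rose. Among all tested genes 4.46% were called, 1.89% lower and 2.56% higher in the mutant. The median log2 fold change of the 10 was -0.32 and that of all tested genes -0.04, with 8 of the 10 below 0. At an unadjusted p under 0.05 there were 2 of the 10, Pph13 and oc, where 12.0% of all tested genes passed. Libraries of the groups did not overlap for 3 of the 10, lower in the mutant for Pph13 and melt and higher for hpo. Among all recovered tested genes 18.3% had no such overlap, 9.21% being lower in the mutant.

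**Figure D1:**
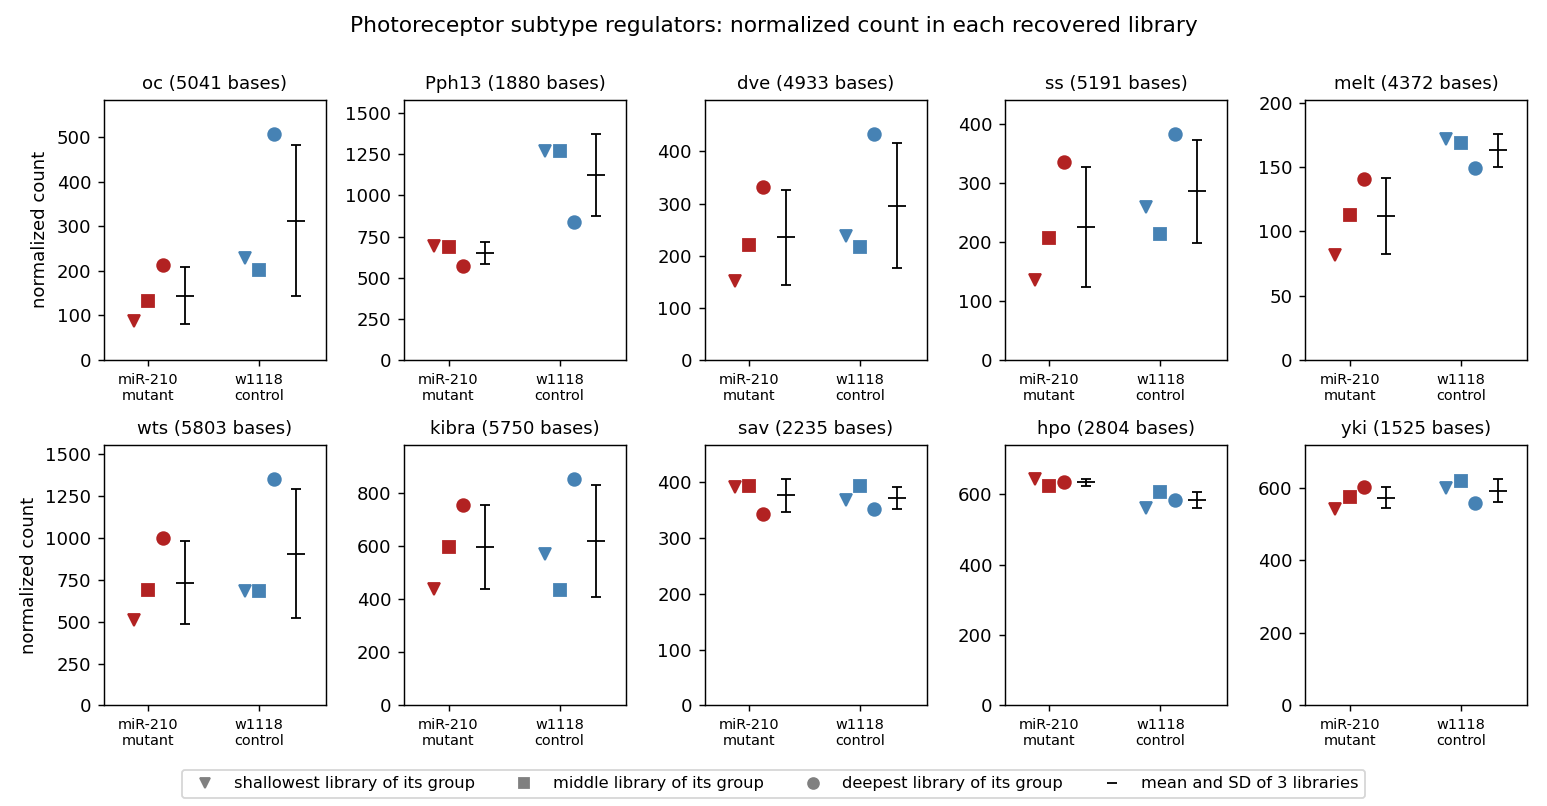
Normalized count of each regulator (vertical axes, from 0) in the 3 miR-210 mutant (red) and 3 w1118 control (blue) libraries, with marker shape for the library's depth rank and black bars for the mean and SD of 3 libraries. Pph13 and melt are lower in every mutant library than in any control library, and wts, kibra, ss, dve and oc are highest in the deepest library of both groups.

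Among the homeodomain factors Pph13, needed for the light-sensing rhabdomere membranes and for Rh6 expression, had 692, 686 and 571 normalized counts in the shallowest, middle and deepest mutant libraries. In the control libraries, in the same order, Pph13 had 1272, 1269 and 838. The highest mutant library thus lay below the lowest control library. Pph13 averaged 650 ± 67.9 in mutants and 1126 ± 250 in controls (SD, n = 3 libraries each). The authors' deposited table put Pph13 at -0.79 on the log2 scale (1.73-fold lower, adjusted p = 0.0455).

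The Pph13 call was close to the threshold. limma on log2 values of the recovered libraries gave -0.77 (95% interval -1.29 to -0.26, adjusted p = 0.218), under a rule that called 0.992% of genes. When the model also held a term for the deepest libraries, the adjusted p was 0.00104 in limma, and without those libraries 0.00419. The labels give no such term, and the depth ranks came from the recovered libraries. The deepest mutant library (size factor 0.9731) was nearer in depth to the shallowest control library (1.004) than to the deepest control library (1.722). Leaving out single libraries gave limma adjusted p from 0.092 to 0.598, in fits that called 0.198% to 0.653% of all genes. The fold change of Pph13 was -0.55 within the deepest libraries and -0.88 in the other 4.

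The gene oc encodes a homeodomain protein that activates Rh3 and Rh5 and is also needed for the ocelli, the simple eyes on top of the head. Mutant libraries, shallowest to deepest, held 87.8, 132 and 214 normalized counts of oc. Control libraries held 229, 201 and 508. The ranges overlapped only through the deepest mutant library, which exceeded the middle control library, and within both groups the deepest library was highest.

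Means of oc were 144 ± 63.9 in mutants and 313 ± 170 in controls (SD, n = 3 each). The authors' deposited table put oc at -1.11 on the log2 scale, larger in size than Pph13, but oc did not pass (adjusted p = 0.283). The difference was similar within both sets of libraries, -1.25 on the log2 scale in the deepest pair and -0.99 in the other 4. Where limma took the deepest libraries as a term, one the labels do not give, oc passed (adjusted p = 0.00233). Without those libraries it passed too (adjusted p = 0.0367). With all 6 libraries and no such term it did not (adjusted p = 0.444), and without the deepest control library its limma value was -0.66. These settings called unlike shares of all genes, 16.0% with the term and 7.58% without the deepest libraries, so 2 of 10 regulators called is near the background with the term.

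The gene dve encodes a homeodomain repressor that keeps Rh3, Rh5 and Rh6 out of the outer photoreceptors. It had 152, 221 and 332 normalized counts in mutant libraries, shallowest to deepest, and 237, 216 and 434 in control libraries. Values of the groups overlapped. For dve the authors' deposited table gave -0.33 on the log2 scale (adjusted p = 0.915). Leaving out single libraries moved the limma value of dve from -0.61, without the deepest mutant library, to -0.02, without the deepest control library.

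The bHLH-PAS factor gene ss, which switches R7 from Rh3 to Rh4, had 135, 207 and 336 normalized counts in mutant libraries and 260.1, 214 and 384 in control libraries, shallowest to deepest. Each mutant library was below the control library of the same depth rank, a match with no basis in the labels, and the ranges overlapped. For ss the authors' deposited table gave -0.34 (log2, adjusted p = 0.911). The limma interval ran from -1.28 to 0.49, so both a 2-fold fall and a small rise lie inside it. Without the deepest mutant library limma gave -0.73 for ss, and without the shallowest mutant library -0.07.

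The loop that sets R8 subtype is formed by melt and wts. The gene melt encodes a protein with a pleckstrin homology domain, and melt had the lowest mean level per length of the 10. Its mutant libraries held 81.8, 113 and 141 normalized counts from the shallowest to the deepest, resting on 55, 93 and 137 reads. Its control libraries held 172, 169 and 149, from 173, 182 and 256 reads. No mutant library reached the control range, but the deepest mutant and the deepest control library came within a few counts of each other.

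Means of melt were 112 ± 29.5 in mutants and 163 ± 12.9 in controls (SD, n = 3 each). For melt the authors' deposited table listed -0.54 on the log2 scale (adjusted p = 0.464), and limma gave -0.58 (95% interval -1.13 to -0.02, adjusted p = 0.429). It was -0.08 within the deepest libraries and -0.83 in the other 4. No setting of limma called melt (adjusted p from 0.0576 to 0.844), and leaving out the shallowest mutant library gave -0.37.

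The gene wts encodes the kinase at the core of the Hippo pathway, and its activity directs R8 to Rh6. It had 510.3, 687 and 999.9 normalized counts in mutant libraries, shallowest to deepest, and 685, 681 and 1351 in control libraries. The groups overlapped and the spread within them was wide, with means of 732 ± 248 in mutants and 906 ± 386 in controls (SD, n = 3 each). Its fold change was listed as -0.31 on the log2 scale in the authors' deposited table (adjusted p = 0.917).

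The ratio of melt to wts within a library does not depend on the size factor, apart from the pseudocount of 1. On the log2 scale melt minus wts was -2.63, -2.60 and -2.82 in mutant libraries and -1.98, -2.00 and -3.18 in control libraries, shallowest to deepest. The deepest control library had the lowest ratio of all 6 and the other control libraries the highest. Means were -2.68 ± 0.12 in mutants and -2.39 ± 0.68 in controls (SD, n = 3 each), a difference of -0.29 (two-sided exact permutation test, p = 0.4, where 0.1 is the smallest p that 3 against 3 allows). Without the deepest control library the difference was -0.69, without the shallowest or the middle one it was -0.09 or -0.10, and within the deepest pair it turned to 0.36. These are whole heads, where melt and wts are also made outside R8, so the ratio is not that of R8 cells.

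**Figure D2:**
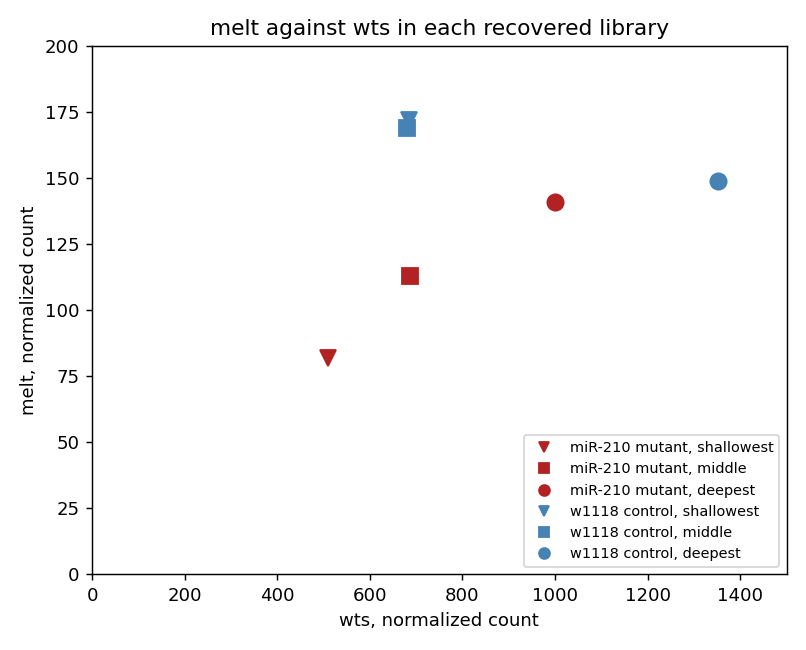
Normalized count of melt (vertical axis) against that of wts (horizontal axis), both axes from 0, in each recovered library, red for miR-210 mutant and blue for w1118 control, with marker shape for depth rank. In mutant libraries both genes are highest in the deepest library, whereas among control libraries the deepest has the most wts (1351) and the least melt (149).

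The other Hippo pathway members had deposited log2 fold changes from -0.06 to 0.12, and none was called. kibra, an upstream activator of the pathway and itself a target of Yki, had 437, 595 and 756 normalized counts in mutant libraries and 571, 436 and 852 in control libraries, shallowest to deepest. The ranges overlapped almost fully. The authors' deposited table gave kibra -0.06 (log2, adjusted p = 0.987), and the limma interval ran from -0.77 to 0.70.

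sav encodes the scaffold that brings the Hpo and Wts kinases together. It had 391, 393 and 342 normalized counts in mutant libraries and 368, 392 and 352 in control libraries. Both ranges nearly coincided. In the authors' deposited table sav stood at 0.02 (log2, adjusted p = 0.989), with a limma interval from -0.34 to 0.38.

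hpo encodes the kinase that activates Wts. Mutant libraries had 643, 624 and 635 normalized counts of hpo, and control libraries 561, 608 and 584. All mutant libraries were above all control libraries, by a small margin. In the authors' deposited table hpo stood at 0.12 (log2, adjusted p = 0.914), and the same 0.12 was found within the deepest libraries and in the other 4.

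yki encodes the transcriptional coactivator that Wts inhibits and that promotes melt and Rh5 in pale R8. It had 543, 575 and 602 normalized counts in mutant libraries and 599.8, 619 and 557 in control libraries, and the ranges overlapped. The authors' deposited table gave yki -0.04 (log2, adjusted p = 0.978), with a limma interval from -0.39 to 0.30. Changes of 2-fold in the RNA of sav, hpo or yki lie outside these intervals, whereas for wts, ss and dve a 2-fold fall lies inside them.

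**Figure D3:**
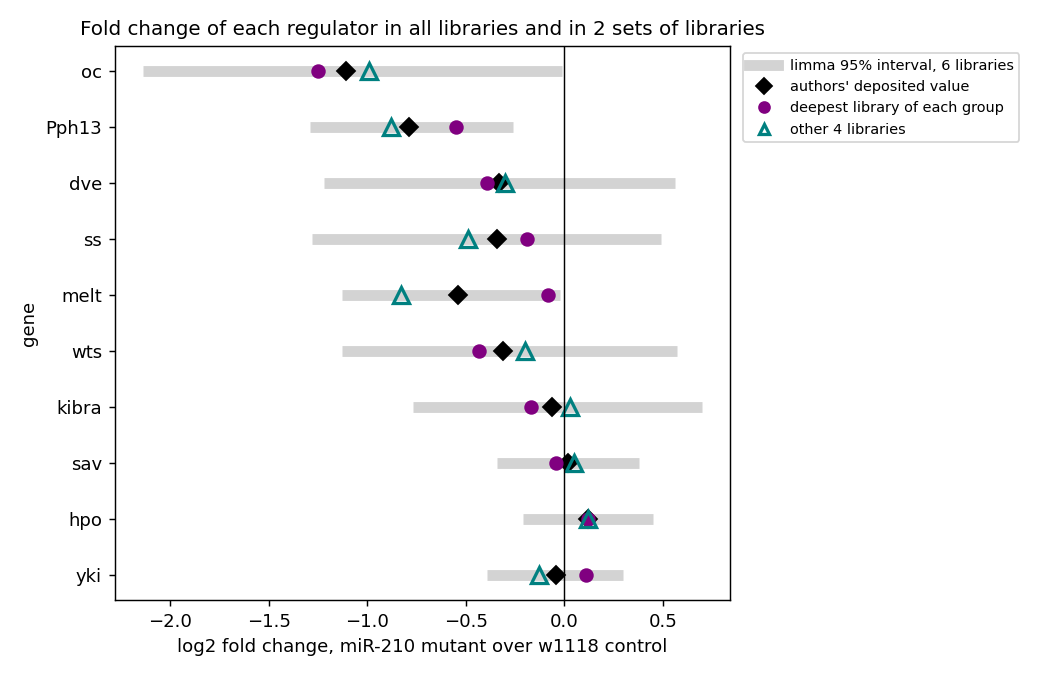
Log2 fold change, miR-210 mutant over w1118 control (horizontal axis), of each regulator (vertical axis): the authors' deposited value (black diamonds), the deepest library of each group (purple circles), the other 4 libraries (open triangles) and the limma 95% interval from all 6 libraries (grey bars). Values for oc lie between -1.25 and -0.99, those for melt spread from -0.83 to -0.08, and those for hpo coincide at 0.12.

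The spread within groups followed gene length. For the 6 regulators with 4372 to 5803 bases of exon (melt, dve, oc, ss, kibra and wts) the deepest library stood above the mean of the other 2 of its group, by 0.55 to 1.00 on the log2 scale in the mutant. In the control this held for 5 of the 6, by 0.70 to 1.24, whereas melt stood at -0.20. For the 4 regulators with 1525 to 2804 bases (yki, Pph13, sav and hpo) the same difference ran from -0.27 to 0.11 among mutant and from -0.60 to 0.00 among control libraries. Over all recovered genes with a mean of at least 50, the median difference was -0.43 in the mutant and -0.45 in the control for 2335 genes under 1500 bases. It was 0.64 in the mutant and 0.68 in the control for 693 genes of 4500 to 6000 bases. The part of this length-related difference in the results above was not tested.

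**Figure D4:**
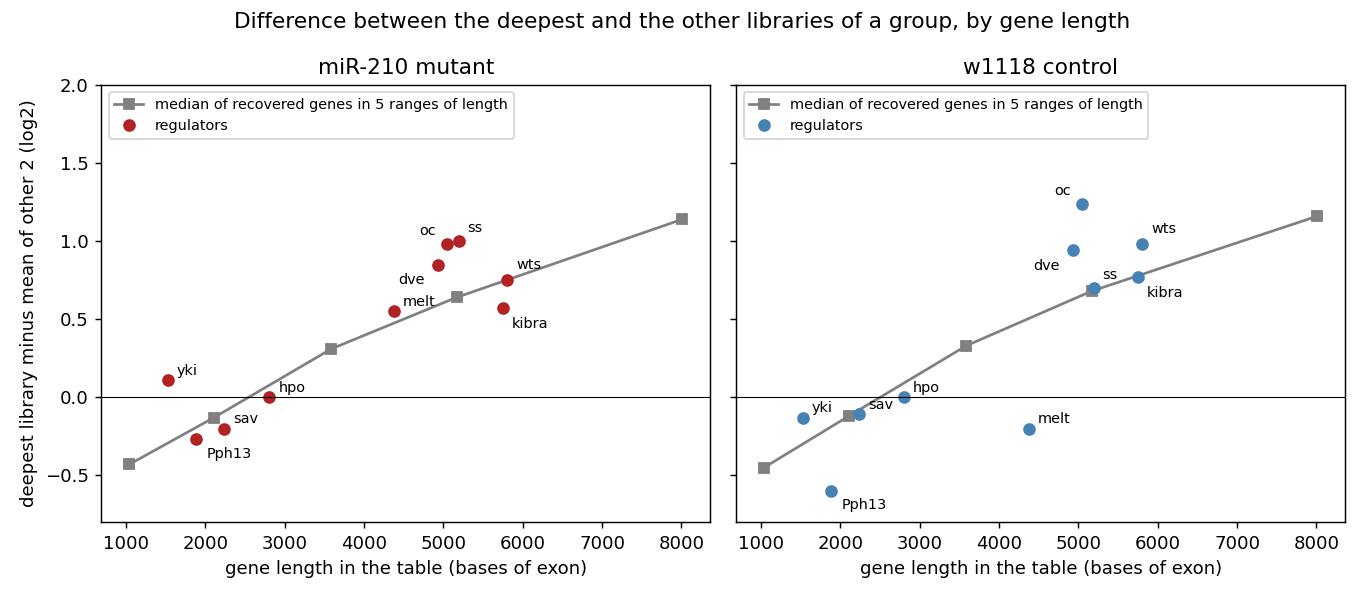
Deepest library minus the mean of the other 2 libraries of its group, in log2 units (vertical axis), against exon length in bases (horizontal axis), miR-210 mutant left and w1118 control right, with coloured points for the regulators and grey squares for medians of all recovered genes in 5 ranges of length. Both medians are higher for longer genes, and melt in the control (-0.20) lies below the line that the other long regulators follow or exceed.

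Levels were compared between genes as normalized counts per kilobase of exon. In mutants yki (376 ± 19.4) and Pph13 (346 ± 36.1) led with overlapping ranges, followed by hpo (226 ± 3.29) and sav (168 ± 12.9), each clear of the next above it. Then came wts (126 ± 42.7), which overlapped sav, and kibra (104 ± 27.7), which overlapped wts, and a low group with dve (47.6 ± 18.4), ss (43.6 ± 19.6), oc (28.7 ± 12.7) and melt (25.6 ± 6.74), each with a range that overlapped the next (SD, n = 3 libraries each). Within every single mutant library wts stood above kibra, dve above ss and ss above oc, whereas oc and melt did not keep 1 order. In controls Pph13 (599 ± 133) stood alone at the top, above yki (388 ± 20.8), hpo (208 ± 8.44) and sav (166 ± 8.82). sav, wts (156 ± 66.5), kibra (108 ± 36.9), oc (62.0 ± 33.7), dve (60.0 ± 24.4) and ss (55.1 ± 16.9) each overlapped the next, and melt (37.4 ± 2.95) lay below ss. Within every single control library wts stood above kibra and kibra above oc, whereas oc, dve and ss did not keep 1 order. The pair at the top was thus in the order yki, Pph13 in mutants and Pph13, yki in controls.

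Exon positions were those of dm6 in the table and in the Ensembl annotation used, and chromosome, start, end and exon length of all 10 genes were identical in both. Pph13, the gene called, lies on 2L from 577486 to 579549 (plus strand), with 1 annotated transcript, and none of its exon bases overlap another gene. The gene oc lies on X from 8630159 to 8650681 (minus strand) with 6 transcripts, melt on 3L from 7134516 to 7143074 (plus strand) with 3, and wts on 3R from 30789625 to 30806619 (minus strand) with 1. Exons of melt share 84 bases with corn and those of hpo 130 bases with Rep, both on the opposite strand, and those of sav share 73 bases with Ctns on the same strand. Whether counting used strand is unstated, so reads in the bases shared with corn or Rep may belong to either gene. For sav and Ctns, strand could not separate the reads in either case.

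Among the rhodopsin genes 5 of 7 were called lower, namely ninaE, Rh2, Rh3, Rh4 and Rh5. Their log2 fold changes in the authors' deposited table ran from -1.67 for ninaE to -5.03 for Rh5, and the lowest value among the regulators was the -1.11 of oc. Rh5 had authors' means of 215 in mutant heads and 7027 in control heads. Rh6, the alternative to Rh5 in R8, stood at -1.08 on the log2 scale in the authors' deposited table (adjusted p = 0.0712), so neither R8 rhodopsin was higher in the mutant. Rh7 stood at -0.03 in the authors' deposited table (adjusted p = 0.995).

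Photoreceptor markers fell alongside Pph13. All 10 tested were below 0 in the authors' deposited table, and 9 were called. The marker not called, norpA, stood at -1.54 (log2, adjusted p = 0.125). Their log2 fold changes ran from -2.59 to -0.82, with a median of -1.21, so that of Pph13 (-0.79) was smaller in size than every marker's. Summed authors' means of the markers were 290912 in the mutant and 752866 in the control, and none was at 0. In whole heads, fewer photoreceptors and less RNA per photoreceptor cannot be told apart, and their part in the Pph13 difference was not tested.

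Neuronal markers (6 in the table, 5 tested) had 0 called and a median of -0.71, with summed normalized counts of 7015 to 20851 in mutant libraries and 13660 to 36296 in control libraries. Glial markers had 1 of 6 called (alrm, lower), a median of 0.01, and sums of 15164 to 20669 over the 5 recovered in mutant libraries and 17689 to 21623 in control libraries. Of cone and pigment cell markers 0 of 10 tested were called, with a median of 0.19. Their parts in the differences above were not tested.

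Other genes of the Hippo pathway were read from a list of 39, from cell surface regulators to cofactors of Yki. The list keeps vito, whose place in the pathway is doubtful. All 39 were tested and 0 were called by the authors, where 4.46% of all tested genes were called. At such a share 0 of 39 says little about the pathway. The median log2 fold change was -0.19 and the range -0.71 to 0.65. An unadjusted p under 0.05 was found for 4 of the 39 and for 12.0% of all tested genes. limma called 0 of the 37 recovered, where 0.992% of all genes were called. With the deepest libraries as a term it called 8 of 37, all lower, where 16.0% of all genes were called, and without those libraries 3, namely Schip1, crb and Zyx, where 7.58% of all genes were called.

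Among them, the lowest in the authors' deposited table were Schip1, at -0.71 on the log2 scale (adjusted p = 0.322), and crb, the apical polarity gene crumbs, with -0.65 (adjusted p = 0.408). The highest were the atypical cadherin genes ft, with 0.65 (adjusted p = 0.735), and ds, with 0.46 (adjusted p = 0.737), which encode a receptor and its ligand. Mutant libraries of crb held 958, 1361 and 2013 normalized counts and control libraries 2295, 1941 and 2570, shallowest to deepest. They overlapped through the deepest mutant library, as those of oc did. Patj had the smallest adjusted p of the 39 in the authors' deposited table (log2 -0.48, adjusted p = 0.0666). Its mutant libraries held 1103 to 1193 normalized counts and its control libraries 1447 to 1708, without overlap, as for 18.3% of all recovered tested genes.

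Of 29 other genes of R7 and R8 subtype and identity, 1 was called lower and 0 higher, where 4.46% of all tested genes were called. Their median log2 fold change was -0.12. The gene called was salr, spalt-related, which encodes a zinc finger protein of the Spalt pair needed for inner photoreceptor identity. Mutant libraries held 131, 192 and 210 normalized counts of salr, and control libraries 348, 313 and 439, shallowest to deepest. No mutant library reached the lowest control library. For salr the authors' deposited table gave -1.04 (log2, 2.06-fold lower, adjusted p = 0.00998).

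limma on all 6 libraries called none of the 29, under the rule that called 0.992% of all genes. With the deepest libraries as a term it called salr, mav, ewg and babo, and without those libraries salr and mav. These are 4 and 2 of 29, where 16.0% and 7.58% of all genes were called, so neither count exceeds the background. salm, the other Spalt gene, had -0.43 in the authors' deposited table (adjusted p = 0.873). The others named by rank in the authors' deposited table were ro, with means of 0.685 in mutant and 4.11 in control heads (log2 -2.42, adjusted p = 0.682), svp (0.31, adjusted p = 0.87) and sev (0.23, adjusted p = 0.78). The gene sens, an R8 identity gene, had means of 11.1 in mutant heads and 11.6 in control heads in the authors' deposited table.

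Outside the eye melt acts on insulin and TOR signalling, where it binds Tsc1 and FOXO. Of 12 genes of that pathway 0 were called, where 4.46% of all tested genes were, and the median log2 fold change was -0.13. InR, the insulin receptor gene, had the lowest value in the authors' deposited table, -0.66 (adjusted p = 0.905). Tor had 0.20 (adjusted p = 0.873) and gig 0.05 (adjusted p = 0.983), the highest in the authors' deposited table. limma called 0 of 12 with all libraries.

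**Figure D5:**
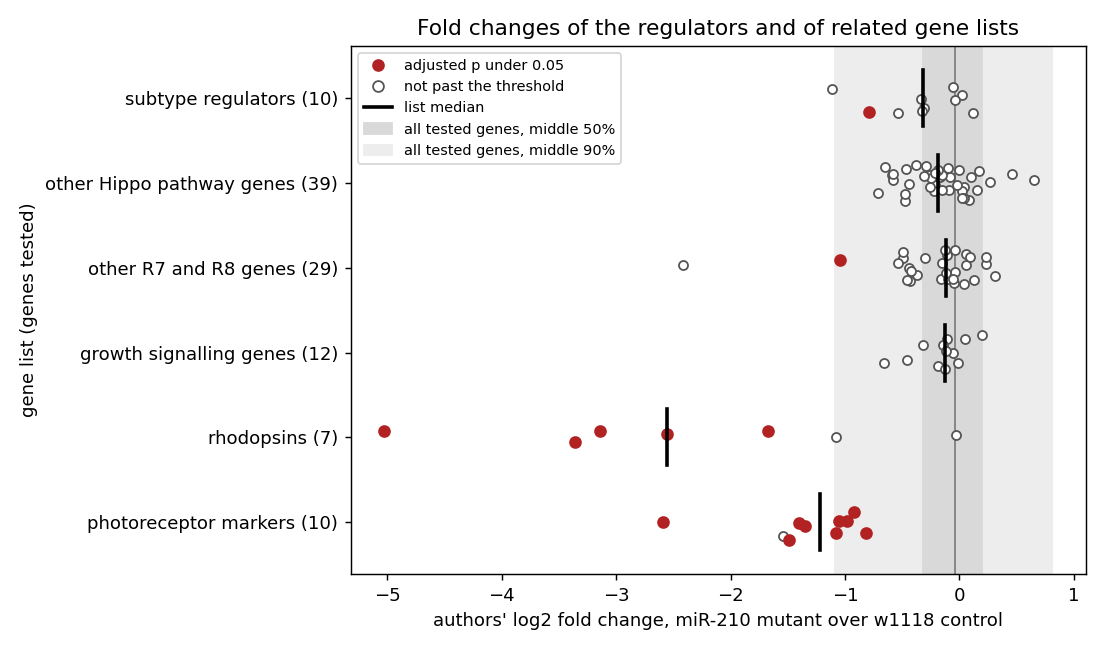
Authors' log2 fold change, miR-210 mutant over w1118 control (horizontal axis), of each tested gene in 6 lists (vertical axis), red where the adjusted p was under 0.05, with black bars for list medians and grey bands for the middle 50% and 90% of all tested genes. The regulators (median -0.32) and the Hippo, R7 and R8 and growth signalling lists lie mostly within the bands, whereas 5 of 7 rhodopsins lie below both bands (median -2.56), and the photoreceptor markers have a median of -1.21.

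The genes most like Pph13 over the 6 recovered libraries, by Pearson correlation of log2 values among 8242 genes with a mean of at least 50, were CG12910 (r = 0.9976), CG9427 (0.9962), CG14701 (0.9954), CG15111 (0.9951) and CG1434 (0.9935). The 6 libraries share the group difference and the lower values in the deepest libraries, so high correlations of this kind are a description only. CG12910 and CG9427 also fell in the mutant in the authors' deposited table (log2 fold changes of -1.50 and -1.22, with adjusted p = 0.00419 and 0.0109). The other 3 did not pass.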

How the data were processed

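The deposited table gives 1 row per gene. Per the labels' processing notes, FastQC, HISAT2, featureCounts and DESeq with build dm6 were named, without roles or versions. Its mean signal for each genotype (normalized counts averaged over 3 libraries), log2 fold change, p-value and adjusted p-value were made by the authors, per the file headers. Benjamini-Hochberg adjustment of 11155 p-values returned the deposited ones (largest deviation 3.8e-15). A further 2386 genes are listed at 1 and count here as not tested.

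Whole reads of single libraries were recovered by searching each mean of at most 10000 for whole-number combinations of 3 steps found from low means. Exactly 1 combination was found for 13193 of 13193 mutant and 13225 of 13225 control means, within 1.1e-11, and all 10 regulators were recovered. In 1500 simulated means a group, 100% were recovered. These reads allowed a fit of log2(normalized count + 1) in R 4.3.3 by limma 3.58.1, with its trend and robust settings, over genes averaging at least 1, with p adjusted over all of them. Fold changes of low genes are understated on that scale. Members and gene lists were chosen with earlier results of these data known. Genes named are the 10, called genes of each list, and otherwise its highest and lowest 2 fold changes. Marker lists are instead given mostly as counts and ranges, and 1 gene is not reported here. Genes named beyond this rule (salm, sens, norpA, so, Patj, Rh6, Rh7 and genes called under alternatives) were chosen after their values were seen. Akt and Galpha49B were matched by gene ID to rows under other symbols.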

Additional observations from a re-analysis of the deposited data

How the results depend on the processing

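No paired analysis was possible because the recovered libraries carry no replicate number. The count of called regulators, 1 by the authors at an adjusted p under 0.05, was 1 at 0.1 and 2 at an unadjusted p under 0.05. limma gave 0 on all 6 libraries. It also gave 0 with a pseudocount of 5, a mean of at least 10, no filter, or libraries scaled to equal totals. When each library was left out in turn it again gave 0, in fits that called 0.198% to 0.653% of all genes. At such shares 0 of 10 says little about the regulators. limma gave 2, Pph13 and oc, with a model term for the deepest libraries and without those libraries. The labels give no such term, and it was set from the recovered libraries. Under the same settings other R7 and R8 genes, 1 by the authors, gave 0, 0 to 0 when leaving out libraries, 4 with the term and 2 without the deepest libraries. Other Hippo genes, 0 by the authors, gave 0 to 0 when leaving out libraries, 8 with the term and 3 without the deepest libraries, and growth signalling genes 1 with the term. The term raised the calls over all genes to 1855, against 115 without it.

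Signs turned for values near 0. kibra was 0.03 without the deepest library of each group, and from -0.26 to 0.22 with single libraries left out. wts was from -0.53 to 0.05 and sav from -0.02 to 0.08 in the same way. The melt to wts difference was 0.36 within the deepest pair, -0.62 without that pair, and from -0.69 to -0.09 with single libraries left out. The causes were not tested. Scaling to equal totals moved the median of all genes from -0.055 to -0.076. The wide intervals of the long regulators, and reads as few as 55 for melt, limit which differences could be detected.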

Other observations

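A list of 11 genes of retinal determination and photoreceptor identity had 1 gene called by the authors, chp. It encodes a photoreceptor surface protein, not an upstream regulator. chp was lower in the mutant (-1.09 and adjusted p = 5.32e-07, both from the authors' deposited table). No other gene of the list was called. The median log2 fold change of the 11 was -0.27. The sine oculis gene so had the highest value, 0.38 in the authors' deposited table (adjusted p = 0.199). Its recovered libraries did not overlap between groups, as was true of 18.3% of all recovered tested genes. Markers of other cell types did not move one way. Fat body markers had 4 of 6 called higher, and muscle markers had 0 of 6 called. Among hemocyte markers 1 of 6 was called, NimC1, which was lower. Its means in the authors' deposited table were 74.8 in mutant and 1384 in control heads. The other 5 hemocyte markers had log2 fold changes above 0, and the median of the 6 was 0.32.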
